A study of Mus musculus with 38 samples.

Results

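Chronic hypoxia was set directly against normoxia on 8 two-colour microarrays of mouse lung vessels, out of 38 arrays in the whole study. The hypoxia animals were C57BL/6J mice kept for 21 days at normal pressure with an inspired oxygen fraction of 0.10 (10% oxygen), and the normoxia animals were C57BL/6J mice kept for the same 21 days at an inspired oxygen fraction of 0.21. All were 12 to 18 weeks old, and their sex is not stated in the labels. Vessels inside the lung, 50 to 100 µm across, were cut by laser from lung sections of 10 µm stained for nuclei, and RNA of 1 hypoxia animal and 1 normoxia animal was amplified and hybridised together on each array. The 8 arrays were chosen by their titles, which name the Cy3 condition and then the Cy5 condition: 4 arrays titled N_H carry hypoxia in Cy5, and 4 titled H_N carry hypoxia in Cy3. They hold 16 of the 76 animals of the study, 8 in hypoxia and 8 in normoxia. The other 30 arrays set animals returned to normoxia against hypoxia animals or against each other, and are used below only where all 38 are named. The labels do not separate arteries from veins, and dissected material can hold cells that border the vessel.

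Small pulmonary vessels constrict in low oxygen, and weeks of hypoxia thicken their walls through growth of smooth muscle, migration of fibroblasts and deposition of matrix. Endothelial signals such as nitric oxide, endothelin and apelin, growth factors such as VEGF and PDGF, and the opposed arms of bone morphogenetic protein and TGF-beta signalling are the pathways best known in this process. Hypoxia-inducible factors are stabilised as proteins within hours of low oxygen and drive genes of glycolysis and of vessel growth. The comparison asks which transcripts differed in the vessel wall at the end of the exposure, before any return to normal oxygen.

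Each value is a log ratio of hypoxia minus normoxia, turned so that a positive value means more signal in the hypoxia animal. The base of the logarithm is not stated in the sources used here, so folds are given for base 10 and for base 2. The direction assumes that Cy5 was divided by Cy3, as is customary, which is likely but not stated, and the opposite choice would turn every sign below. A ratio holds no level, so the presence of vessel markers such as Acta2 or Pecam1 in the dissected material could not be checked against a level. In bulk RNA, fewer cells of a type and less RNA per cell cannot be told apart. The design text counts 76 animals on 38 arrays, so each channel was taken as 1 animal, and p-values measure the spread between these 8 pairs of animals.

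The arrays shared a modest common pattern. Across 30654 entries (19087 named genes and 11567 features without a single gene symbol), the turned log ratios of 2 arrays correlated between -0.0178 and 0.424, with a median of 0.113 over 28 pairs. These are correlations across genes, which are not independent replicates. The highest value joined N_H 4 with H_N 2, and the next highest of any pair was 0.254. Markers of alveolar epithelium were higher in the hypoxia animal on 8 of 8 arrays: the mean log ratio of 31 such markers ran from 0.0353 on H_N 2 to 0.148 on H_N 1, with a median of 0.0984, and N_H 4 had the second lowest value, 0.0420. How far this neighbouring tissue enters the differences below was not tested beyond a fit with that mean as a covariate.

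At a Benjamini-Hochberg adjusted p under 0.05 in limma, a linear model with a term for the dye, 103 of 30654 entries (0.336%) were called, 54 higher (0.176%) and 49 lower (0.16%) in hypoxia. They comprise 42 named genes that rose, 36 named genes that fell and 25 features without a gene name. All 103 had the same sign on 8 of 8 arrays, against 5.03% of all entries (2.43% higher and 2.6% lower), a property that the test itself favours. Sizes were small: the median absolute log ratio of the called entries was 0.166 and the smallest 0.0847. Most calls lay close to the threshold, with 82 of 103 at an adjusted p above 0.04 and a lowest adjusted p of 0.0130. At an unadjusted p under 0.05 there were 4725 entries (15.4%), of which 2247 were higher (7.33%) and 2478 lower (8.08%). These shares are the background for the counts of list members at that p given below.

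The number of calls depended on every single array. Without N_H 1, N_H 2, N_H 3 or N_H 4 it was 8, 1, 0 or 1, and without H_N 1, H_N 2, H_N 3 or H_N 4 it was 21, 0, 10 or 17. In each of these fits of 7 arrays all 103 entries kept their sign and an unadjusted p under 0.05, although they had been selected on arrays that these fits share. Without both N_H 4 and H_N 2, a choice made after seeing the data, limma called 0 entries, with 3781 at an unadjusted p under 0.05. With the alveolar mean as a covariate it also called 0, with 2853 at an unadjusted p under 0.05, and standard errors of the 103 entries were a median of 2.63 times as large while 103 of 103 kept their sign. With the covariate, 45 of the 103 log ratios became smaller in size, and the median ratio to the fit without it was 1.05. The alveolar mean was above 0 on 8 of 8 turned arrays, so this fit separates it poorly from hypoxia. By over 1.5 times, 11 became smaller and 5 larger. Among the called genes named here, those that became smaller by that much were Gpx3, F2r, Actc1, Abhd2 (0.0999), Clic5 (0.102), Sulf1 (-0.0680), Acot7 (0.0617) and Ndrg3 (0.0777). Those that became larger by that much were Tnfrsf18 (0.302) and Gfpt2 (-0.317). Genes named below but not called are outside these counts, and many of them also moved by that much. For example, with the covariate Mfap4 stood at 0.0455, Scd2 at 0.0594 and Lama3 at 0.0589, all smaller. Slc6a4 stood at 0.494 and Gap43 at 0.440, both larger. A fit over all 38 arrays gives the same log ratios with more degrees of freedom for the error. It called 1102 entries (3.59%, with 1.35% higher and 2.25% lower). Among them were 86 of the 103, which is 83.5% of the shorter list and 7.80% of the longer one. Of the called genes described in this text, those not called over all 38 were Tfrc, Rabl2, Clec12b, Spock2 and Mrpl12 (adjusted p between 0.0517 and 0.150). Further called genes with a symbol, not described here, were also not called over all 38, with adjusted p up to 0.156.

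**Figure D1:**
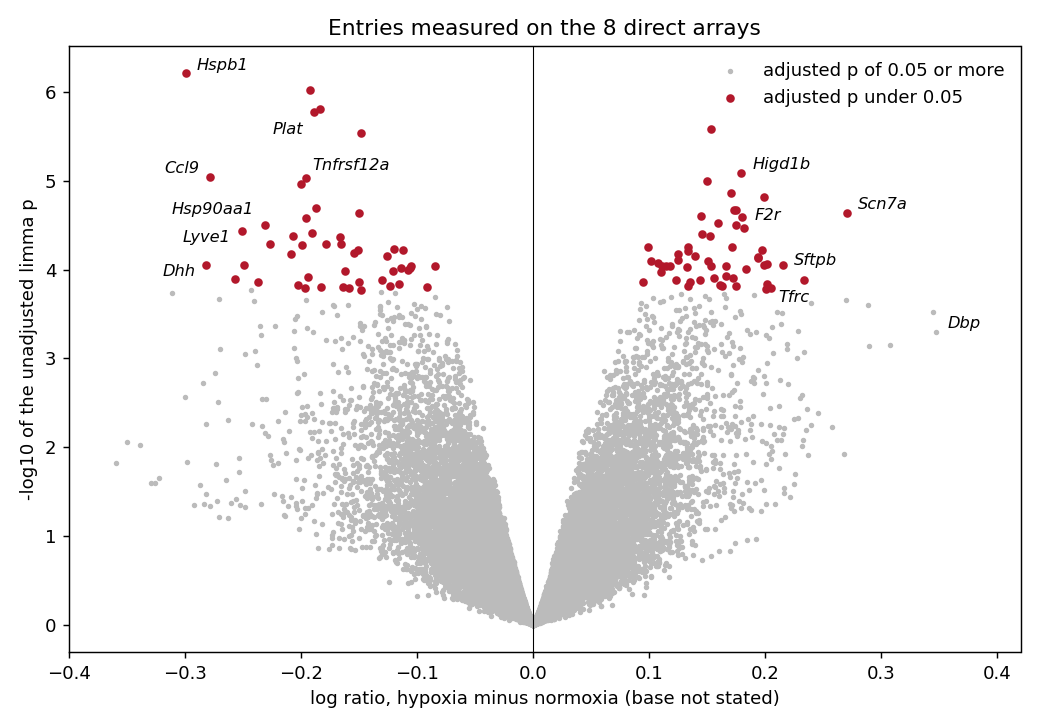
Each point is 1 of 30654 entries, with the log ratio of hypoxia minus normoxia on the horizontal axis and -log10 of the unadjusted limma p on the vertical axis. The 103 called entries, in red, split into 54 on the right (higher in hypoxia) and 49 on the left, and Dbp lies far to the right without being called.

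Among genes that rose, Scn7a, which encodes an atypical sodium channel, had the largest log ratio of the named genes called. It ran from 0.162 to 0.386 with a median of 0.251 over the 8 arrays and averaged 0.270 ± 0.0323 (SE; adjusted p = 0.0381). That is a fold of 1.86 in base 10 or 1.21 in base 2. Sftpb, which encodes surfactant protein B of alveolar type 2 cells, ran from 0.110 to 0.356 with a median of 0.184 and averaged 0.215 ± 0.0309 (adjusted p = 0.0425). Tfrc encodes the transferrin receptor, by which cells take up iron. Its 10 features agreed closely, between 0.196 and 0.205, and its mean ran from 0.0267 to 0.289 with a median of 0.220 over arrays, with 0.202 ± 0.0309 (adjusted p = 0.0491). For this and every gene below, features share the same RNA on each array, so their agreement is not independent support. Whether several features repeat 1 probe was not checked. H_N 4 gave the lowest Tfrc value, and the gene was not called over all 38 arrays (adjusted p = 0.0558). Slc39a8, a zinc, manganese and iron importer that is also a type 2 cell marker, rose by 0.139 ± 0.0193 (adjusted p = 0.0425).

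Other genes that rose belong to several processes. Cers2 (log ratio 0.205 ± 0.0319) makes ceramides with very long acyl chains, Ddx6 (0.198 ± 0.0269) is an RNA helicase of processing bodies, and Tnfrsf18 (0.201 ± 0.0313) is the costimulatory receptor GITR of T cells. Nebl (0.180 ± 0.0219) encodes nebulette, a Z-disc protein of heart muscle. The small GTPase gene Rabl2, the hydrolase gene Abhd2 and the membrane-curvature gene Mtss2 stood at 0.199 ± 0.0285, 0.175 ± 0.0270 and 0.175 ± 0.0217. Each of these 7 genes was above 0 on 8 of 8 arrays, with adjusted p between 0.0381 for Nebl and 0.0498 for Tnfrsf18. Kdm3b, a histone demethylase that needs oxygen, rose by 0.171 ± 0.0190 with a range from 0.113 to 0.227 (adjusted p = 0.0347). Ifit3b, an interferon-induced gene with near-identical family members, had 0.150 ± 0.0161 (adjusted p = 0.0304), and cross-hybridisation among those copies leaves its identity uncertain.

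Among genes that fell, Hspb1, which encodes a small heat shock protein that protects the actin cytoskeleton, had the largest difference. Its values ran from -0.414 to -0.219 with a median of -0.293 and averaged -0.300 ± 0.0226 (adjusted p = 0.0130), lower by a fold of 1.99 in base 10 or 1.23 in base 2. Dhh, the ligand Desert hedgehog made by Schwann cells and endothelium, ran from -0.397 to -0.0368 with a median of -0.327 and averaged -0.282 ± 0.0403 (adjusted p = 0.0425). H_N 1 was nearest to 0 for Dhh, while the other 7 arrays lay well below it. Plat, which encodes tissue plasminogen activator of endothelium, ran from -0.237 to -0.116 with a median of -0.192 and averaged -0.189 ± 0.0162 (adjusted p = 0.0130). Tnfrsf12a, the receptor of the cytokine TWEAK, averaged -0.200 ± 0.0217 (adjusted p = 0.0304), and Penk, the precursor of enkephalins, -0.197 ± 0.0306 (adjusted p = 0.0491).

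Other genes that fell were Gfpt2, the entry enzyme of the hexosamine pathway, with -0.207 ± 0.0268, the anchoring protein gene Akap6 with -0.196 ± 0.0238, and Map3k7cl with -0.257 ± 0.0387. Their adjusted p were 0.0425, 0.0381 and 0.0482. Lepr, the leptin receptor, had -0.159 ± 0.0247 (adjusted p = 0.0491), with 11 of 11 features below 0 but at sizes between -0.181 and -0.000508. Ifna9, an interferon alpha gene, stood at -0.196 ± 0.0208 (adjusted p = 0.0304), and its family holds near-identical copies, so the transcript measured is uncertain. The same holds for Ssty1, a called gene of a multicopy family.

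**Figure D2:**
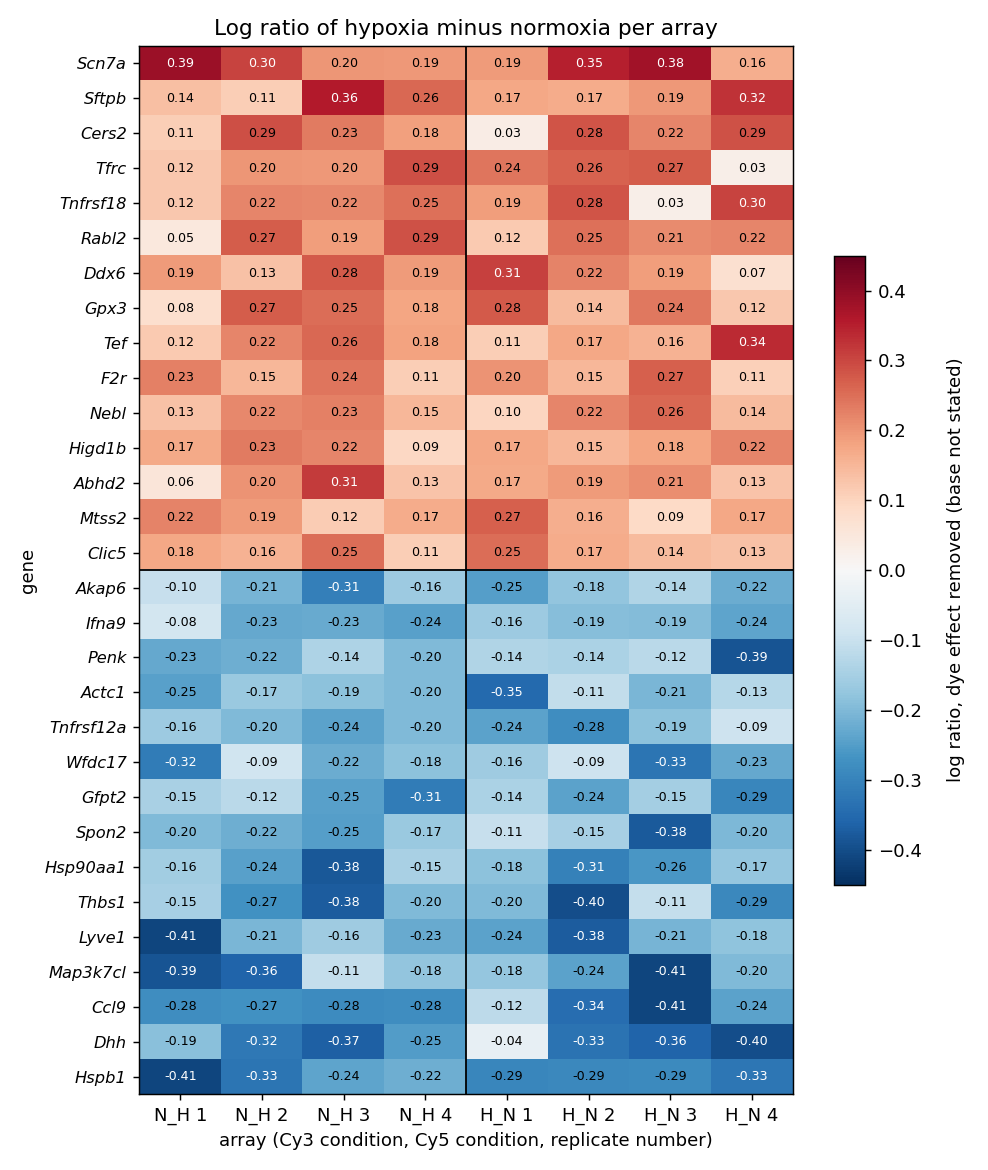
Log ratio of hypoxia minus normoxia on each of the 8 arrays, after removal of the dye effect, for the 15 named genes with the largest rise and the 15 with the largest fall among those called. Cells of the upper block run from 0.0267 (Tfrc on H_N 4) to 0.386 (Scn7a on N_H 1), and cells of the lower block from -0.414 (Hspb1 on N_H 1) to -0.0368 (Dhh on H_N 1).

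Contractile genes of smooth muscle, the main cell of the media, were mostly below 0. Of 23 measured, 4 were above and 19 below 0, with a median log ratio of -0.0499 against -0.00397 over all entries, of which 45.2% were above and 54.8% below 0. None of the 23 was called in limma; 11 were lower and 0 higher at an unadjusted p under 0.05, and 5 were called lower over all 38 arrays. Cnn1 (calponin) ran from -0.305 to -0.0844 with a median of -0.184 and averaged -0.190 ± 0.0348 (adjusted p = 0.0665), and Actg2 (enteric smooth muscle actin) ran from -0.311 to -0.0400 with a median of -0.180 and averaged -0.172 ± 0.0286 (adjusted p = 0.0584). Acta2, the smooth muscle actin that defines the cell, was below 0 for 14 of 14 features and on 8 of 8 arrays, at -0.116 ± 0.0225 (adjusted p = 0.0749). Tpm2, a tropomyosin, stood at -0.111 ± 0.0255 (adjusted p = 0.106), Tagln at -0.103 ± 0.0302 (adjusted p = 0.168) and the transcriptional coactivator Myocd at -0.0875 ± 0.0218 (adjusted p = 0.125). Of 3 features of Myocd 2 were above 0, and they ranged from -0.304 to 0.0383. Myh11, the smooth muscle myosin heavy chain, was nearer to 0, at -0.0370 ± 0.0247 (adjusted p = 0.520), with a range from -0.142 to 0.0576.

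The contractile list mean was below 0, and the alveolar means above 0, on 8 of 8 arrays. Being so on every array, this shows no link between them. The part of the alveolar markers in the contractile result was not tested beyond 1 fit. With the alveolar mean as a covariate the median of the contractile list was 0.00974. In that fit Cnn1 stood at -0.244 ± 0.0912, Actg2 at -0.0465 ± 0.0589 and Acta2 at -0.0589 ± 0.0566. Tpm2, Tagln and Myh11 stood at 0.0128, 0.0385 and 0.0658. Cnn3, a calponin that is not limited to muscle, was called and fell by 0.106 (SE 0.0154; adjusted p = 0.0425). Pericyte genes divided in another way. Of 11 measured, 5 were above 0, and Higd1b, a pericyte gene of the hypoxia-inducible domain family, rose on every array, from 0.0940 to 0.232 with a median of 0.175, to a mean of 0.179 ± 0.0187 (adjusted p = 0.0304). Notch3, the receptor of mural cells, stood at 0.124 ± 0.0332 (adjusted p = 0.143) and at 0.000158 ± 0.0748 with the covariate, and Cspg4 (NG2) at -0.0307 ± 0.0149 (adjusted p = 0.372). The mean of the pericyte list was below 0 on N_H 4 and H_N 2 only, where the alveolar markers were also lowest. A link between the pericyte and alveolar values was not tested.

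**Figure D3:**
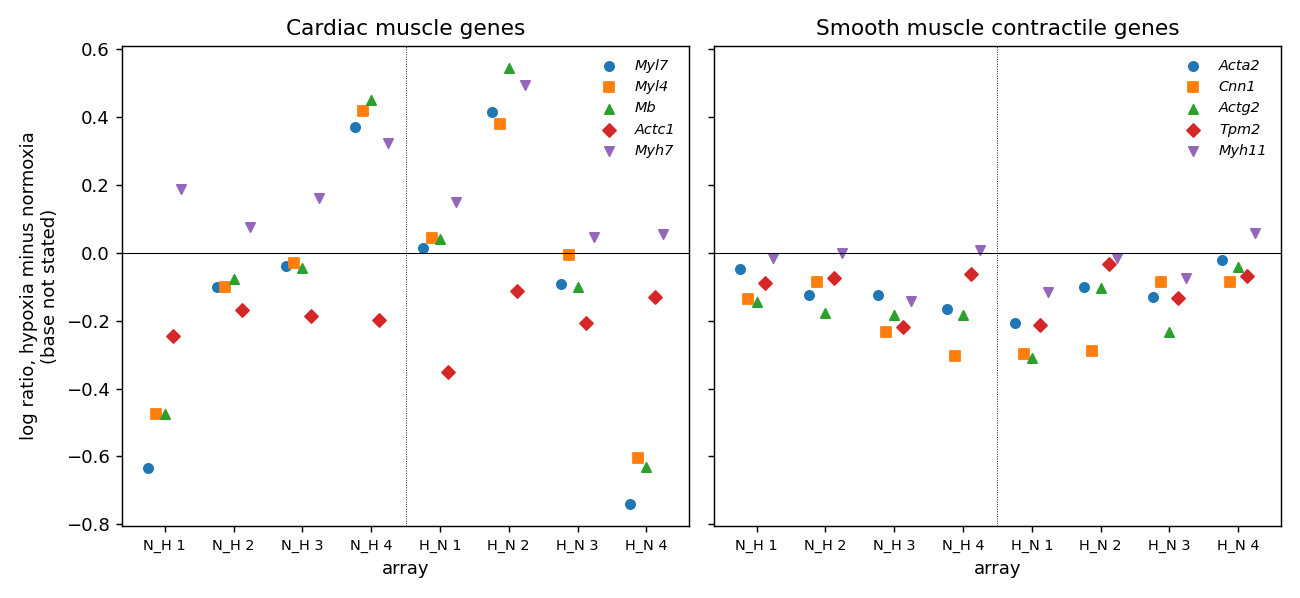
Log ratio of hypoxia minus normoxia on each array for 5 heart muscle genes (left) and 5 contractile genes of smooth muscle (right), with N_H arrays left of the dotted line. Myl7, Myl4 and Mb lie between -0.741 and -0.476 on N_H 1 and H_N 4 and between 0.371 and 0.546 on N_H 4 and H_N 2, whereas Actc1 is below 0 and Myh7 above 0 on 8 of 8 arrays.

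Genes of heart muscle, which sheathes the larger pulmonary veins of mice, set the arrays apart. Myl7, the atrial myosin light chain, had -0.633 on N_H 1 and -0.741 on H_N 4, but 0.371 on N_H 4 and 0.415 on H_N 2, and lay between -0.101 and 0.0150 on the other 4 arrays. Myl4 and the myoglobin gene Mb had the same pairs of arrays at their ends, from -0.605 to 0.418 and from -0.630 to 0.546. None of the 3 was called: Myl7 averaged -0.100 ± 0.134 (adjusted p = 0.764). These 3 genes were singled out after their values were seen. The arrays N_H 4 and H_N 2, where these 3 genes were higher in the hypoxia animal, are the pair with the highest correlation over all entries. Actc1, the cardiac actin that smooth muscle also expresses, did not follow that pattern. It ran from -0.350 to -0.112 with a median of -0.192 and fell by 0.199 (SE 0.0266; adjusted p = 0.0425). With the alveolar covariate Actc1 was -0.102 ± 0.0605. Myh7, the slow myosin heavy chain, ran from 0.0473 to 0.495 with a median of 0.156 and was not called (adjusted p = 0.146). Of 21 heart muscle genes measured, 5 were above and 16 below 0 and 1 was called. The median of the list was -0.0414, and -0.105 without N_H 4 and H_N 2. The list mean was above 0 on those 2 arrays only, so leaving them out favours a lower median.

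Endothelial genes had no common direction. Of 20 pan-endothelial genes, 12 were above and 8 below 0 (median 0.0180), 0 were called in limma, and 4 stood on each side at an unadjusted p under 0.05. Over all 38 arrays 3 were called higher, Robo4, Kdr and Emcn, and 2 lower, Vwf and Ramp2. Cdh5 (VE-cadherin) averaged 0.0831 ± 0.0234 (adjusted p = 0.156) and Pecam1 0.0680 ± 0.0300 (adjusted p = 0.329), with 11 of 11 Pecam1 features above 0. Vwf, the clotting glycoprotein stored in endothelium of larger vessels, ran from -0.210 to -0.0480 with a median of -0.109 and averaged -0.113 ± 0.0212 (adjusted p = 0.0705). Robo4, a guidance receptor, stood at 0.171 ± 0.0326 and Kdr, the main VEGF receptor, at 0.130 ± 0.0323 (adjusted p = 0.0721 and 0.124). Below 0 were Esam at -0.0847 ± 0.0136, Ramp2 at -0.0862 ± 0.0171 and the tight junction gene Cldn5 at -0.0757 ± 0.0213, with adjusted p of 0.0557, 0.0769 and 0.156.

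By vessel type, arterial endothelial genes lay around 0, with 8 of 15 above it, a median of 0.0106 and 0 called in limma, 3 of them at an unadjusted p under 0.05 (Hey1 above 0, Gja5 and Dll4 below). Gja5, the arterial connexin 40, stood at -0.0687 ± 0.0182 (adjusted p = 0.142). Among 12 capillary genes, 6 were above 0 and 1 was called: Tbx2, a transcription factor that mesenchyme also expresses, ran from 0.0651 to 0.131 with a median of 0.0994 and rose by 0.0987 ± 0.0133 (adjusted p = 0.0425). Apln, the ligand apelin of capillary and tip endothelium, averaged 0.156 ± 0.0275 (adjusted p = 0.0634), Car4, of alveolar capillaries, 0.173 ± 0.0401 (adjusted p = 0.109), and Gpihbp1 0.0895 ± 0.0238 (adjusted p = 0.142). Car4 turned to -0.0460 ± 0.0643 with the alveolar covariate. Cd93, on the other side of 0, had -0.0961 ± 0.0324 (adjusted p = 0.217).

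Genes of clotting and fibrinolysis gave 2 calls in opposite directions among 19 measured, 10 of them above 0, with a median of 0.00946, or -0.0266 with the alveolar covariate. There were 3 above and 6 below 0 at an unadjusted p under 0.05, and the list mean was below 0 on 7 of 8 arrays. Beside the fall of Plat, F2r rose. F2r encodes the thrombin receptor PAR1, and its values ran from 0.107 to 0.267 with a median of 0.176 and a mean of 0.182 ± 0.0228 (adjusted p = 0.0412), or 0.0981 ± 0.0520 with the alveolar covariate. Gas6, a ligand of the TAM receptors, stood at 0.0891 ± 0.0167 (adjusted p = 0.0706). Procr, the endothelial protein C receptor, was below 0 on 8 of 8 arrays but unevenly so, from -0.828 to -0.0377 with a median of -0.151, and was not called (adjusted p = 0.211). Anxa2, which assembles plasminogen with its activator at the cell surface, stood at -0.0603 ± 0.0159 (adjusted p = 0.140).

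Among bone morphogenetic protein and TGF-beta genes, Ccn2 and Tgfbi fell. Of 43 measured, 20 were above and 23 below 0, with a median of -0.00250, and 0 were called higher and 2 lower. There were 6 above and 6 below 0 at an unadjusted p under 0.05, against 7.33% and 8.08% of all entries. Ccn2, connective tissue growth factor, ran from -0.249 to -0.0786 with a median of -0.171 and averaged -0.166 ± 0.0221 (adjusted p = 0.0425). Tgfbi, a TGF-beta-induced matrix protein, ran from -0.253 to -0.0644 with a median of -0.142 and averaged -0.150 ± 0.0228 (adjusted p = 0.0491). The ligand Tgfb3 just missed the threshold at -0.131 ± 0.0207 (adjusted p = 0.0523), and the secreted Fstl1 and the signal transducer Smad1 stood at -0.133 ± 0.0246 and -0.110 ± 0.0255 (adjusted p = 0.0681 and 0.108). On the other side, Id3, a target of bone morphogenetic proteins, stood at 0.0813 ± 0.0179 (adjusted p = 0.0961), and Bmpr2, the receptor gene mutated in heritable pulmonary hypertension in humans, at 0.0393 ± 0.0145 (adjusted p = 0.255). With the alveolar covariate, Tgfb3 and Fstl1 were -0.0319 ± 0.0398 and -0.0363 ± 0.0541, whereas Ccn2 was -0.170 ± 0.0597.

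Matrix genes gave single calls. Among 27 collagen and fibroblast genes, 12 were above 0 (median -0.00985) and 1 was called, Thbs1, thrombospondin 1, an activator of latent TGF-beta. Thbs1 ran from -0.400 to -0.107 with a median of -0.236 and averaged -0.249 ± 0.0356 (adjusted p = 0.0425). Col3a1 stood at -0.0841 ± 0.0184, Col5a2 at -0.195 ± 0.0484 and fibronectin (Fn1) at 0.146 ± 0.0402, with adjusted p of 0.0957, 0.125 and 0.151. With the alveolar covariate Fn1 stood at 0.342 ± 0.0752. Of 18 basement membrane genes, 9 were above 0 and 1 was called, Nid1, nidogen, which links laminin to collagen IV, with -0.123 ± 0.0191 (adjusted p = 0.0491). Col4a6 and Lama3 lay on opposite sides, at -0.0999 ± 0.0168 and 0.148 ± 0.0308 (adjusted p = 0.0598 and 0.0850). None of 19 elastic fibre genes was called in limma, 5 of them at an unadjusted p under 0.05 (Mfap4 above 0, Eln, Ltbp3, Fbln2 and Mfap5 below). Elastin (Eln) stood at -0.130 ± 0.0262 and Mfap4 at 0.152 ± 0.0245 (adjusted p = 0.0803 and 0.0557).

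Outside those lists, called genes that encode matrix or cell surface proteins lay on both sides of 0; they were picked out after their values were seen. Among those that fell, Spon2, a secreted integrin ligand, had -0.209 ± 0.0287, Tinagl1, a matrix protein of vessels, -0.179 ± 0.0238, and Sulf1, which trims sulfate from heparan sulfate chains, -0.126 ± 0.0175, with adjusted p of 0.0425 for each. Col2a1, a cartilage collagen, fell by 0.113 (SE 0.0153; adjusted p = 0.0425), with 12 of 12 features below 0. Among those that rose, the heparan sulfate proteoglycan Sdc1, an epithelial syndecan, had 0.167 ± 0.0248 (adjusted p = 0.0482), and the proteoglycan gene Spock2, an alveolar type 1 marker here, had 0.102 ± 0.0144.

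The listed targets of hypoxia-inducible factors and glycolysis genes showed no common direction after 21 days. Of 37 measured, 17 were above and 20 below 0, the median was -0.00633, and 0 were called in limma. These counts depend on the members chosen, and the called Tfrc is not in this list. At an unadjusted p under 0.05 there were 2 above 0, Vegfa and Pfkfb3, and 2 below, Pgam1 and Slc16a3. Vegfa, the endothelial growth factor, was above 0 for 12 of 12 features. It ran from 0.0609 to 0.254 with a median of 0.0964 and averaged 0.125 ± 0.0233 (adjusted p = 0.0683, and 0.0415 over all 38 arrays). Pfkfb3, a driver of glycolysis in endothelium, ran from 0.0537 to 0.277 with a median of 0.142 and averaged 0.156 ± 0.0305 (adjusted p = 0.0755). The glycolytic enzyme Pgam1 stood at -0.0662 ± 0.0189 and the lactate exporter Slc16a3 at -0.0570 ± 0.0219 (adjusted p = 0.161 and 0.270).

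Vasoactive and growth factor genes gave no call in limma. Of 33 vasoactive genes 16 were above 0 (median -0.000655). At an unadjusted p under 0.05 there were 4 above and 2 below 0, against 7.33% and 8.08% of all entries. Above 0 were Apln, Gucy1a1, Slc6a4 and Agtr1a, and below 0 were Pde3a and Tbxas1. Nos3, the endothelial nitric oxide synthase, was near 0 at -0.0293 ± 0.0296 (adjusted p = 0.685), and Slc6a4, the serotonin transporter, stood at 0.188 ± 0.0541 with one array as high as 0.479 (adjusted p = 0.162). Gucy1a1, a subunit of the nitric oxide receptor, stood at 0.0881 ± 0.0236 (adjusted p = 0.144). Of 40 growth factors and receptors of the vessel wall, 27 were above 0 with a median of 0.0366, and 12 above and 6 below 0 had an unadjusted p under 0.05. The list mean was above 0 on 8 of 8 arrays, from 0.0172 to 0.0627. Besides Vegfa, Fgf1 stood at 0.141 ± 0.0274, the semaphorin and VEGF coreceptor Nrp1 at 0.115 ± 0.0271, Fgfr2 at 0.0797 ± 0.0182, Igfbp2 at 0.144 ± 0.0277 and Igfbp4 at -0.105 ± 0.0198, with adjusted p between 0.0712 and 0.113. Igfbp2 is also an alveolar type 1 marker here and enters the alveolar mean. With the alveolar covariate Fgfr2 stood at 0.0191 ± 0.0429, Fgf1 at 0.150, Nrp1 at 0.201, Igfbp2 at 0.151 and Igfbp4 at -0.157.

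Markers of macrophages that surround vessels were mostly below 0. Of 27 measured, 7 were above and 20 below 0, the median was -0.0371, and 1 was called. That gene, Lyve1, a hyaluronan receptor of perivascular macrophages and of lymphatic endothelium, ran from -0.414 to -0.161 with a median of -0.217 and averaged -0.251 ± 0.0320 (adjusted p = 0.0425). At an unadjusted p under 0.05, 10 markers were below and 4 above 0 (Gas6, Trem2, Maf and Cbr2). Clec10a and Mgl2, paired lectins of these cells, averaged -0.271 ± 0.0438 and -0.196 ± 0.0318 (adjusted p = 0.0557 and 0.0560), and the haemoglobin scavenger receptor Cd163 -0.248 ± 0.0495 (adjusted p = 0.0781), each below 0 on 8 of 8 arrays. Folr2 stood at -0.129 ± 0.0297 and Trem2, of the opposite sign, at 0.119 ± 0.0282 (adjusted p = 0.107 and 0.114). The list mean was below 0 on 8 of 8 arrays, between -0.0688 and -0.0278.

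Lyve1 also belongs to the lymphatic list and was the member called. Of 10 lymphatic genes, 6 were above and 4 below 0 with a median of 0.0546, and at an unadjusted p under 0.05 there were 4 above 0 and 2 below, Lyve1 and Foxc2. The lymphatic valve factor Foxc2 stood at -0.0953 ± 0.0397 and the transcription factor Maf at 0.0694 ± 0.0206 (adjusted p = 0.306 and 0.173). Thy1 averaged 0.137 ± 0.0409 (adjusted p = 0.176), with its 2 features apart, at -0.0261 and 0.299. Markers of alveolar macrophages were split, 7 above and 8 below 0, with 0 called in limma and 7 at an unadjusted p under 0.05. Chil3, a secreted lectin of these cells, stood at 0.200 ± 0.0450 and the lipid carrier Fabp4 at -0.179 ± 0.0338 (adjusted p = 0.102 and 0.0715). Among 19 monocyte and neutrophil markers, 15 were below 0, the median was -0.0570 and 0 were called in limma, with 7 below and 2 above 0 (Hp and Chil1) at an unadjusted p under 0.05. Ly6c2, of classical monocytes, stood at -0.139 ± 0.0358 (adjusted p = 0.133). The list mean was above 0 on N_H 2, at 0.0555, and below 0 on the other 7 arrays, down to -0.139.

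Chemokines and cytokines were below 0 for 27 of 33 genes, with a median of -0.0324, and Ccl9 was the gene called. Ccl9, a chemokine of macrophages that attracts myeloid cells, ran from -0.413 to -0.118 with a median of -0.279 and averaged -0.278 ± 0.0294 (adjusted p = 0.0304), lower by a fold of 1.90 in base 10 or 1.21 in base 2. Ccl17 stood at -0.213 ± 0.0663 and the macrophage growth factor Csf1 at -0.118 ± 0.0341 (adjusted p = 0.190 and 0.163). Other called genes of myeloid cells or complement, picked out after their values were seen, went both ways. Clec12b, a C-type lectin receptor, rose by 0.159 ± 0.0197 (adjusted p = 0.0404, but 0.150 over all 38 arrays). Wfdc17, a secreted protein of myeloid cells, fell by 0.203 (SE 0.0312; adjusted p = 0.0491), Cfp, the complement regulator properdin, by 0.162 (SE 0.0237; adjusted p = 0.0437), and Rarres2, the chemoattractant chemerin, by 0.106 (SE 0.0152; adjusted p = 0.0425).

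Alveolar epithelial genes were the lists most evenly above 0. All 16 type 2 markers measured had a positive log ratio, with a median of 0.0930, 13 of them at an unadjusted p under 0.05 against 7.33% of all entries, and 2 were called, Sftpb and Slc39a8. Of 15 type 1 markers 14 were positive (median 0.0996) and 2 were called: Clic5, a chloride channel protein, ran from 0.110 to 0.252 with a median of 0.162 and averaged 0.173 ± 0.0205 (adjusted p = 0.0381), and Spock2, a matrix proteoglycan, had 0.102 ± 0.0144 (adjusted p = 0.0425). Abca3, the lipid transporter of lamellar bodies, stood at 0.0967 ± 0.0166, the protease gene Napsa at 0.118 ± 0.0247 and the type 1 gene Gprc5a at 0.0756 ± 0.0182, with adjusted p of 0.0613, 0.0866 and 0.117. The type 2 mean was above 0 on 8 of 8 arrays, from 0.0573 to 0.154, and the type 1 mean from 0.00727 on H_N 2 to 0.137 on H_N 1.

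**Figure D4:**
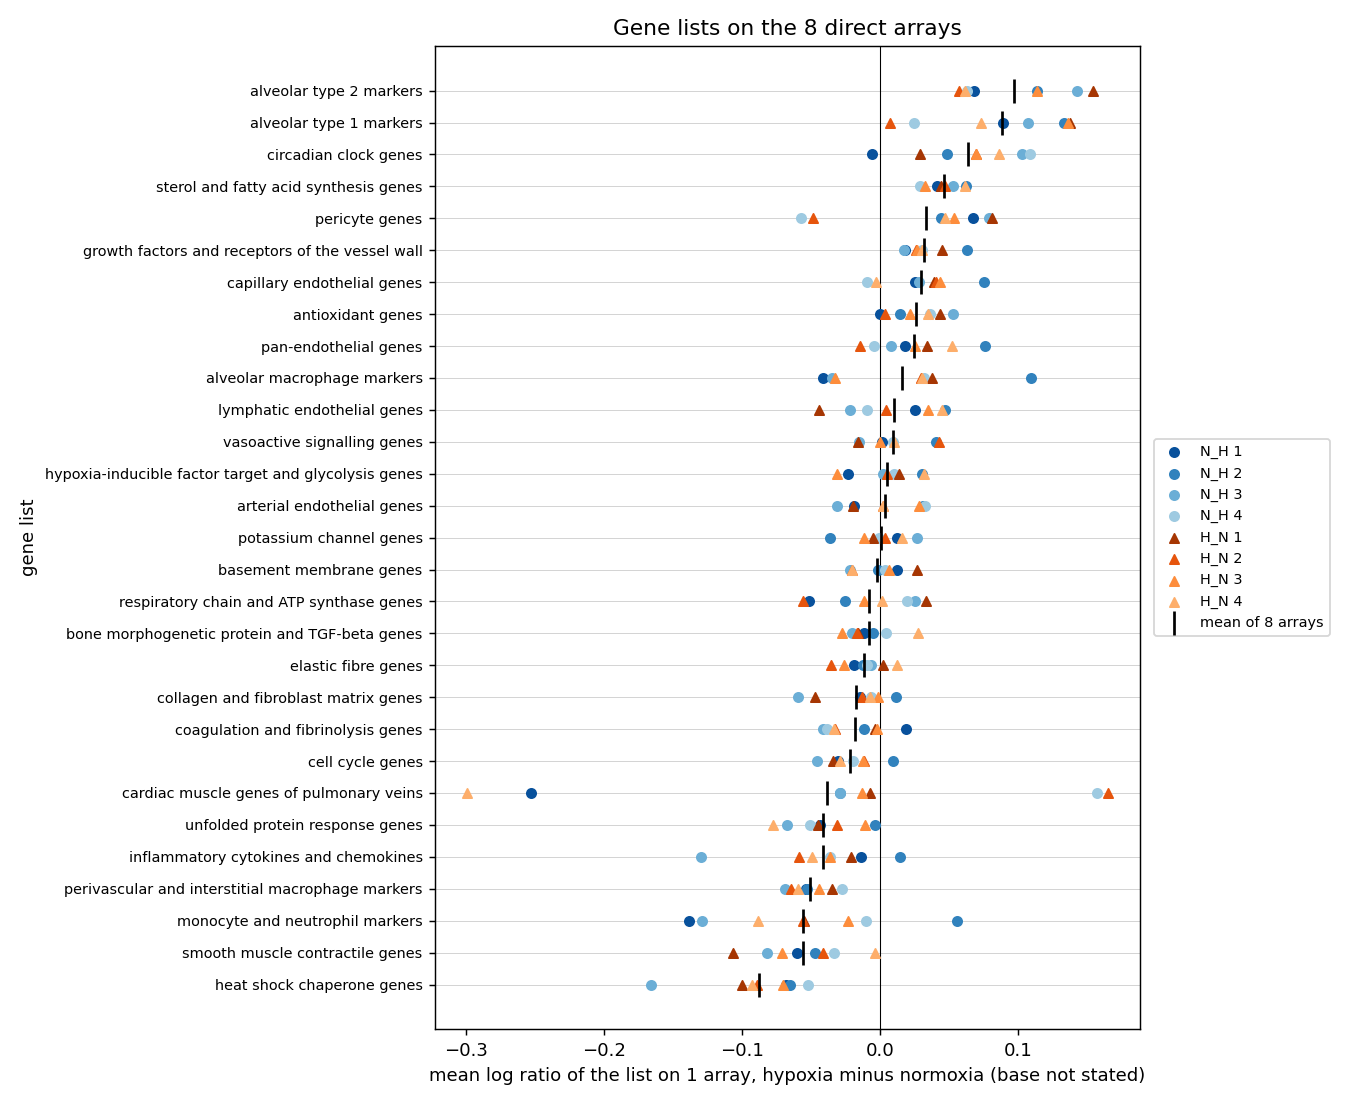
Mean log ratio of hypoxia minus normoxia over the members of 29 gene lists (rows), with 1 point per array (circles for N_H, triangles for H_N) and a bar at the mean of the 8 arrays. Alveolar type 2 and type 1 means are above 0 and heat shock and smooth muscle means below 0 on 8 of 8 arrays, while heart muscle means range from -0.299 to 0.165.

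Heat shock chaperones, which keep other proteins folded, had the lowest median of the lists shown in the plot of list means. Of 23 measured, 4 were above and 19 below 0, with a median of -0.0969, and 2 were called, Hspb1 and Hsp90aa1. At an unadjusted p under 0.05 there were 15 below 0 and 1 above, Cryab. Hsp90aa1, the inducible HSP90, ran from -0.380 to -0.146 with a median of -0.213 and averaged -0.231 ± 0.0288 (adjusted p = 0.0404). Hsph1, a co-chaperone of HSP70, averaged -0.235 ± 0.0436 and ran from -0.482 to -0.0544 (adjusted p = 0.0683), and Hspe1, the mitochondrial HSP10, stood at -0.0969 ± 0.0161 (adjusted p = 0.0584). The mitochondrial HSP70 gene Hspa9 stood at -0.0992 ± 0.0196 (adjusted p = 0.0767), and Cryab, a small heat shock protein of muscle, at 0.0712 ± 0.0275 (adjusted p = 0.273). With the alveolar covariate the median of the list was -0.0346 and Hspb1 stood at -0.298 ± 0.0611.

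Heat shock factor 1 induces many of these genes through a heat shock element of inverted nGAAn units, so promoter sequence is shown for 3 members below 0. Windows of 250 bases before to 50 after the gene start (RefSeq, GRCm38.p6) were searched for GAANNTTCNNGAA and its reverse complement TTCNNGAANNTTC, where N is any base. Of 27025 genes with a window 179 (0.662%) hold it on either strand in 1 or more windows. Among the 23 chaperone genes 19 had a window and 4 of those hold it (Hsph1, Hspe1, Hspd1 and Chordc1). Of the 3 genes shown, Hspb1 was called and Hsph1 and Hspe1 were not. Hsp90aa1, the other called chaperone, had no window. Regulation by heat shock factor 1 was not tested. Capitals mark the match, and in Hspe1 they mark 2 matches that overlap. The Hsph1 window spans chr5:149636287-149636586 on the minus strand and is the first of 2 listed, that of Hspe1 chr1:55087898-55088197 on the plus strand, and that of Hspb1, which does not hold these letters, chr5:135887669-135887968 on the plus strand.
Hsph1: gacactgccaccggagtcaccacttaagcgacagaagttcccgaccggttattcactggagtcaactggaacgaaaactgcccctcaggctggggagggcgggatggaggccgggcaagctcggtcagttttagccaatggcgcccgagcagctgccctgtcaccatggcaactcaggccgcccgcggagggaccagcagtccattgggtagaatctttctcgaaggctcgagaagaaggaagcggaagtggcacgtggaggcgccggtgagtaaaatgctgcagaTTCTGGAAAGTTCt
Hspe1: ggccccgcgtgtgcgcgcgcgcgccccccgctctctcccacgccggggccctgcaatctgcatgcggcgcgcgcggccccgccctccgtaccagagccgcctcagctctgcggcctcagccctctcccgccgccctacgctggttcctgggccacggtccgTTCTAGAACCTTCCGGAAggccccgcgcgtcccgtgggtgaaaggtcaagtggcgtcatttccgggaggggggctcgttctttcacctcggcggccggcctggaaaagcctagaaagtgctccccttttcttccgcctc
Hspb1: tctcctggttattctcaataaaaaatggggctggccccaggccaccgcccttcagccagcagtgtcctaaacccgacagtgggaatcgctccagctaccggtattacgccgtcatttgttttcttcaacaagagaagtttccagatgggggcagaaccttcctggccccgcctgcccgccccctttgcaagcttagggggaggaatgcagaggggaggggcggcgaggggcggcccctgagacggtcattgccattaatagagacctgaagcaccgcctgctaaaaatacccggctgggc

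In Hsph1 the match lies at bases 287 to 299, past the gene start, and in Hspe1 the matches lie at bases 162 to 174 and 167 to 179, before it. Genes of the unfolded protein response, by which cells answer misfolded protein in the endoplasmic reticulum, were below 0 for 18 of 23 members, with a median of -0.0313 and 0 called in limma. At an unadjusted p under 0.05 there were 6 below 0 and 1 above, Trib3. Dnajb11, a chaperone there, ran from -0.337 to -0.0729 with a median of -0.171 and averaged -0.182 ± 0.0309 (adjusted p = 0.0607). Hspa5, the chaperone BiP, stood at -0.143 ± 0.0304, Pdia4 at -0.122 ± 0.0258 and the secreted Manf at -0.173 ± 0.0403, with adjusted p of 0.0893, 0.0886 and 0.111. The mean of this list was below 0 on 8 of 8 arrays, from -0.0778 to -0.00373.

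Clock genes, which cycle over the day, were above 0 for 12 of 18, with a median of 0.0594, and 1 was called. Tef, a transcription factor of the clock's output, ran from 0.109 to 0.337 with a median of 0.178 and rose by 0.194 ± 0.0270 (adjusted p = 0.0425), with 4 of 4 features above 0. Dbp, its closest relative, had the largest value among the named clock genes but a wide spread, from 0.0903 to 0.663 with a median of 0.325, and averaged 0.347 ± 0.0636 (adjusted p = 0.0665), a fold of 2.23 in base 10 or 1.27 in base 2. Above 0 were also Per2 at 0.107 ± 0.0233, Nr1d1 at 0.150 ± 0.0340 and Nr1d2 at 0.139 ± 0.0393, which are repressors of the loop, and below 0 were Arntl, its activator, at -0.0761 ± 0.0266, and Nfil3, an opponent of Dbp and Tef, at -0.215 ± 0.0634. Their adjusted p ran from 0.0938 for Per2 to 0.232 for Arntl. The hour of tissue collection is not given in the labels.

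The clock activators bind E-boxes, and the Tef window is printed because Tef is the clock gene called. It spans chr15:81802423-81802722 on the plus strand (RefSeq, GRCm38.p6), is the first of 2 listed for the gene, and holds the E-box CACGTG, a palindrome shown in capitals, at bases 124 to 129. The same letters occur in 1 or more windows of 2187 of the 27025 genes with a window (8.09%), and of 5 of the 16 clock genes with one: Per1, Cry1, Tef, Bhlhe41 and Ciart.
Tef: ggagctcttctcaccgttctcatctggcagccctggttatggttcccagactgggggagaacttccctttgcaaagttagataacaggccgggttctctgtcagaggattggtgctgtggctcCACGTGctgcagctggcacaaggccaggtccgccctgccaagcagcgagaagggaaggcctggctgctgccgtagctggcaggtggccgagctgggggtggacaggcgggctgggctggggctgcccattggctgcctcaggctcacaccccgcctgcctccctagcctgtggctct

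Of 24 antioxidant genes, 15 were above 0 (median 0.00943) and 1 was called. Gpx3, the glutathione peroxidase of plasma, ran from 0.0760 to 0.277 with a median of 0.207 and rose by 0.194 ± 0.0271 (adjusted p = 0.0425). With the alveolar covariate Gpx3 was 0.0645 ± 0.0520. Gpx2 stood at 0.0982 ± 0.0251 and peroxiredoxin Prdx1 at 0.0659 ± 0.0194 (adjusted p = 0.132 and 0.170). Genes of sterol and fatty acid synthesis were above 0 for 19 of 25, with a median of 0.0405, and 0 were called in limma, with 7 above 0 and 1 below, Hsd17b7, at an unadjusted p under 0.05. Insig1, a brake on sterol synthesis that sterol regulatory factors themselves induce, stood at 0.166 ± 0.0269, the desaturase gene Scd2 at 0.166 ± 0.0276 and Hmgcs1 at 0.0773 ± 0.0237, with adjusted p of 0.0557, 0.0584 and 0.185. The list mean was above 0 on 8 of 8 arrays, in a narrow range from 0.0287 to 0.0621.

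Genes of the cell cycle, of respiration and of potassium channels gave 0 calls in limma. Of 33 cell cycle genes 24 were below 0 (median -0.0197), with the list mean below 0 on 7 of 8 arrays, and 0 were called in limma, with 2 above 0 (Cdkn1b and Tyms) and 4 below (Pcna, Plk1, Bub1b and Cdkn1c) at an unadjusted p under 0.05. Cdkn1b, which encodes the cell cycle inhibitor p27, stood at 0.0787 ± 0.0197 (adjusted p = 0.127). Of 40 respiratory chain and ATP synthase genes 15 were above 0 (median -0.0111), with 0 called in limma and 5 at an unadjusted p under 0.05 (Atp5a1 above 0, Atp5c1, Cycs, Uqcrfs1 and Cox7a1 below). Of 26 potassium channel genes 13 were above 0 and 0 were called in limma. At an unadjusted p under 0.05 there were 3 (Kcna5 and Kcnk1 above 0, Kcna1 below). The share of all entries at that p, for comparison with each of these lists, was 15.4%. Kcna1 stood at -0.0746 ± 0.0143 (adjusted p = 0.0728). The mean over members had the opposite sign to the median in 8 lists. The mean was 0.0330 against a median of -0.0135 for pericyte genes, and -0.0183 against 0.00946 for coagulation and fibrinolysis genes. In the other 6, the hypoxia-inducible factor target, vasoactive, alveolar macrophage, polyamine, potassium channel and calcium entry lists, both lay within 0.02 of 0.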

How the data were processed

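RNA of laser-microdissected lung vessels was hybridised on two-colour Agilent arrays with 45220 features, of which 33653 have 1 gene symbol in the platform annotation, 56 several and 11511 none. The authors deposited 1 log ratio of Cy5 and Cy3 per feature and array, with base and direction unstated, and name limma without a version, per the submitters' processing notes. How background and dyes were corrected is not given in the sources used here. Spot brightness and scan batches were not analysed here, so dim features stayed in, batches went untested, and precision depends on the number of arrays. Symbols were checked against RefSeq (GRCm38.p6), and 0 changed.

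Features of 1 gene were averaged per array (8343 genes had several). Of the genes named, Anxa2, Bmpr2, Cdkn1b, Gja5, Maf, Myocd, Thy1 and Vcam1 had features on both sides of 0. Log ratios of the 8 arrays were modelled in R 4.3.3 (limma 3.58.1, lmFit followed by eBayes), with a dye intercept and a term of 1 where hypoxia was in Cy5 and -1 where it was in Cy3, leaving 6 residual degrees of freedom. Tests were two-sided, adjusted by the Benjamini-Hochberg method over all 30654 entries. Values are log ratio ± SE, and values per array have the dye effect removed. The genes named were the 15 largest called in each direction, up to 6 members with the smallest p in each list described, members of counts of 5 or fewer, and Acta2, Myh11, Pecam1, Cdh5 and Vwf. Others were chosen after their values were seen: further called genes named for what they encode, and Nos3, Cspg4, Bmpr2 and the heart muscle genes. The 8 arrays and the 48 gene lists (1031 distinct members, 954 measured, 29 lists described) were chosen with earlier results of these data known, and lists were given no test.

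On simulated data of 8 arrays and 30654 entries, 40 entries were changed at each size. Noise was drawn independently for each entry and array. Recovered were 25% at a log ratio of 0.1, 62.5% at 0.15, 70% at 0.2, 72.5% at 0.25 and 92.5% at 0.3. There were 10 false calls over all sizes. Deviations that genes share on an array were absent, so these rates need not hold for the real arrays. Alternatives covered the dye term, array scale and centre, the choice of features, array weights, robust variance, entries tested, an alveolar covariate, all 38 arrays, the replicate number as a block, and arrays left out. The numbers in the titles did not pair the arrays: the correlation of deviations between arrays of 1 number ran from -0.0648 to 0.00647 over 4 numbers.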

Additional observations from a re-analysis of the deposited data

Results flagged for a closer look

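Among 154 named genes and 48 gene lists, 4 had an array whose distance to its nearest neighbour was large for the range of the 8 arrays by Dixon's test. Chance alone flags about 1 in 20 such groups. Penk had -0.388 on H_N 4, with the next array at -0.231. Kdr had 0.340 on H_N 3, with the next array at 0.162. The mean of the mast cell and basophil markers was -0.0942 on N_H 2, with the next array at -0.0252. The mean of the heat shock chaperones was -0.166 on N_H 3, with the next array at -0.100.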

How the results depend on the processing

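The number of entries called was 103, and it ran from 0 to 21 with 1 array left out, 7 arrays leaving fewer degrees of freedom. It was 207 without the dye term, 6 with single features, 6 with the feature of largest SD, 1102 over all 38 arrays, and 0 with the alveolar covariate or without both N_H 4 and H_N 2. Scaling, centring, weights, robust variance, a filter on low SD and named genes alone kept it within 1.5 times. The replicate number as a block, together with the dye effect, gave 0 calls in limma with 4620 entries at an unadjusted p under 0.05, and the lowest adjusted p was 0.129. The numbers did not pair the arrays. Each number holds 1 array of each orientation, so the block leaves the log ratios unchanged, and their kept signs carry no information. The cause of these shifts was not tested.

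List medians moved by more than the spread of the arrays mainly with the covariate. There they were 0.00974 for smooth muscle, -0.0113 for capillary, -0.0266 for coagulation, 0.0278 for vasoactive and 0.0238 for growth factor genes, -0.0460 for elastic fibres, -0.0316 for basement membrane, 0.0309 for type 2 and -0.0321 for type 1 markers, -0.0484 for perivascular and -0.0460 for alveolar macrophages, -0.0346 for heat shock, -0.0429 for respiration and 0.0378 for potassium channels. Type 1 and type 2 markers make up the covariate itself. With single features the medians were 0.0194 for lymphatic and 0.0223 for growth factor genes and -0.0775 for monocytes and neutrophils. With the feature of largest SD they were 0.0844 for lymphatic, 0.0664 for growth factor, 0.0288 for antioxidant and 0.0697 for sterol genes, -0.0544 for perivascular macrophages and -0.0931 for monocytes and neutrophils. Without N_H 4 and H_N 2 they were -0.0201 for basement membrane and -0.0485 for perivascular macrophages. Leaving out 1 array moved no median of the lists described by more than that spread. A single array carries only a small part of each estimate, so a move of that size was unlikely from the start. No conclusion on the stability of the medians is drawn from leaving out 1 array.

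Among named genes, the covariate reversed Tpm2 (0.0128), Tagln (0.0385), Myh11 (0.0658), Car4 (-0.0460), Nos3 (0.0955), Myl7 (0.0542), Myl4 (0.118) and Mb (0.230), none of them called in any of these fits of 8 arrays. With 1 array left out, Myl7 ran from -0.186 to 0.00643, Myl4 from -0.124 to 0.0460 and Mb from -0.133 to 0.0628. Of entries simulated with independent noise on 8 arrays, 25% were recovered at a log ratio of 0.1, 62.5% at 0.15 and 92.5% at 0.3. No other number of arrays was simulated.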

Other observations

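Nerve and Schwann cell markers were split, 11 above and 9 below 0 of 20, with a median of 0.00576 and 1 called, Scn7a, which fibroblasts of the lung also express and which counted in both lists. Gap43, a protein of growing nerve endings, ran from 0.120 to 0.489 with a median of 0.234 and averaged 0.269 ± 0.0437 (adjusted p = 0.0560), while Dhh, the Schwann cell ligand, fell. Of 23 adventitial and alveolar fibroblast markers 12 were above 0, with a median of 0.0235, Scn7a called, and a list mean above 0 on 8 of 8 arrays. The methyltransferase gene Inmt stood at 0.128 ± 0.0223 and Limch1 at 0.0923 ± 0.0171 (adjusted p = 0.0620 and 0.0681).

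Immediate early genes, which cells induce within minutes of a stimulus, were below 0 for 18 of 26, with a median of -0.0325, 0 called in limma, and 8 below and 1 above 0 (Nr4a2) at an unadjusted p under 0.05. The mean of this list was above 0 on 3 of 8 arrays, and its median was 0.00927 with the alveolar covariate. Klf4 averaged -0.126 ± 0.0283 and Jun -0.0968 ± 0.0235, each below 0 on 8 of 8 arrays (adjusted p = 0.102 and 0.119). Venous endothelial genes were below 0 for 8 of 10 with 0 called in limma and 3 at an unadjusted p under 0.05 (Nr2f2 above 0, Vcam1 and Prss23 below), and the adhesion molecule gene Vcam1 stood at -0.132 ± 0.0289 (adjusted p = 0.0961). Among 24 matrix proteases and inhibitors 17 were below 0 with 0 called in limma and 7 at an unadjusted p under 0.05. Timp4 stood at -0.132 ± 0.0260 and Mmp3 at -0.139 ± 0.0278 (adjusted p = 0.0765 and 0.0781).

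Further called genes that rose were Iqgap1, a scaffold of the cell cortex, with 0.154 ± 0.0220, Coq8b, of coenzyme Q synthesis, with 0.166 ± 0.0239, the thioesterase gene Acot7 with 0.133 ± 0.0179, Ndrg3 with 0.118 ± 0.0169, Septin4 with 0.111 ± 0.0159 and Scube2 with 0.0949 ± 0.0145. Called genes that fell included Kank1, an adaptor at cell adhesions, with -0.194 ± 0.0291, and the mitochondrial ribosome gene Mrpl12 with -0.120 ± 0.0162. Of these 8 genes, Mrpl12 was not called over all 38 arrays (adjusted p = 0.0876) and the other 7 were.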
